A study of Mus musculus with 6 samples.

Results

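Collagen modifying and processing enzymes were examined in isolated lung endothelial cells (iLECs) of mice that lost *Atp6ap2* in the endothelium. The list holds 10 genes, given by name with earlier results of these data known: the prolyl 4-hydroxylase subunits *P4ha1*, *P4ha2*, *P4ha3* and *P4hb*, the lysyl hydroxylases *Plod1*, *Plod2* and *Plod3*, the chaperone *Serpinh1*, and the procollagen processing genes *Pcolce* and *Bmp1*. All 10 were found among the 24972 gene symbols of the deposited table, and all 10 passed the filter on low values described below. RNA-Seq was performed on iLECs at P7, with 3 control and 3 *Atp6ap2*iECKO libraries. Control samples were labelled *Atp6ap2* fl/Y without Cre. *Atp6ap2*iECKO samples were *Atp6ap2* fl/Y and also carried *Cdh5*-CreERT2, a Cre recombinase that tamoxifen activates and that is driven by the promoter of the endothelial cadherin gene *Cdh5*. *Atp6ap2*iECKO libraries are also called knockout libraries below. All pups, controls included, received tamoxifen at 100 μg from P1 to P3. No group carried the Cre without the floxed allele. The strain label is C57BL/6, while the methods of the study describe a mixed background. Lungs were digested with collagenase and dispase, and cells were captured on beads coated with an antibody to CD31. The study assessed the purity of iLECs by immunoblot for VE-cadherin, αSMA and desmin. Other cells can remain in such an isolate.

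Collagen chains are modified in the endoplasmic reticulum before they fold into a triple helix. Prolyl 4-hydroxylase, built from catalytic alpha subunits and the beta subunit *P4hb*, makes hydroxyproline, which stabilises the helix, while lysyl hydroxylases make hydroxylysine, which is needed for sugar attachment and for strong cross-links. The chaperone encoded by *Serpinh1* (HSP47) binds the folded helix, and outside the cell the proteinase BMP1, aided by the enhancer PCOLCE, cuts off the C-propeptide so that fibrils can form. In vessels, endothelial cells make the type IV collagen of the basement membrane, whereas fibroblasts and mural cells make most fibrillar collagen.

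Expression was given as normalized counts, which are estimated read numbers that the authors had scaled between libraries and which are not whole numbers. The library totals were between 26243878 and 28725799. The most frequent value above 0, taken as the worth of 1 estimated read, was 2.30, 2.34 and 2.26 in controls and 1.87, 1.51 and 1.86 in knockout libraries. In that unit the totals were 12475191, 11893889 and 11672755 in controls against 14546571, 17939928 and 14097432, so every knockout library was the deeper, and the part of depth in the results was not tested. Differences between genotypes were tested with limma across the 14456 genes with a value of at least 10 in at least 3 libraries, after adding 1 and taking log2, with *P* values adjusted over all of them and a threshold of 0.05. Fold changes are on that scale. The replicates are described as biological, and whether a library pooled pups was not given in the sources used here. *Xist*, a transcript of the inactive X chromosome, was high in 4 libraries and near 0 in control replicate 3 and *Atp6ap2*iECKO replicate 2, although all 6 samples were labelled fl/Y and the methods state that both sexes were used. Results with *Xist* as a covariate, and in the 4 libraries with *Xist*, are given beside the counts of collagen biosynthesis genes. The targeted gene *Atp6ap2* had normalized counts of 7490, 5815 and 5681 in controls and 4220, 2336 and 1982 in *Atp6ap2*iECKO libraries. It was lower in all 3 *Atp6ap2*iECKO libraries, and replicate 1 kept the most. Its log2 fold change was -1.22 ± 0.26 (SE), with an adjusted *P* of 0.0306 in limma. The call was kept without knockout 1 (adjusted *P* = 0.0060) and lost without control 1 (0.0782), control 2 (0.0628), control 3 (0.0857), knockout 2 (0.103) or knockout 3 (0.0986), with the same direction in each.

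Of the 10 genes, 1 rose in *Atp6ap2*iECKO iLECs, 2 fell and 7 did not pass the test. *P4ha2*, a catalytic prolyl 4-hydroxylase subunit, rose 1.63-fold. *Pcolce*, the enhancer of C-propeptide removal, fell to 0.378 of its control level, and *Plod2*, the lysyl hydroxylase of collagen telopeptides, fell to 0.673. Across all genes tested, 3.28% were called higher, 4.97% lower and 8.25% in either direction. These were 474 genes higher and 719 lower. With a library left out, the counts ranged from 28 to 460 higher and from 178 to 658 lower. Without control 2 more genes were called higher (460) than lower (365). The libraries of the genotypes did not overlap for 5 of the 10 genes, which adds *P4hb* and *Bmp1* to the 3 called, against 29.8% of all genes. Over the 10 genes the median log2 fold change came to -0.12, against 0.00 over all genes. The summed normalized count of the 10 genes was 0.995 of the control mean in *Atp6ap2*iECKO iLECs, where *Serpinh1* and *P4hb* make up most of the sum. With *Xist* as a covariate the same 3 genes were called, beside 248 higher and 519 lower over all genes. In the 4 libraries with *Xist*, 2 of each genotype, limma called 0 genes of any kind, while 4 of the 10 genes and 2196 of the 14094 genes tested there had an unadjusted *P* value below 0.05.

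**Figure D1:**
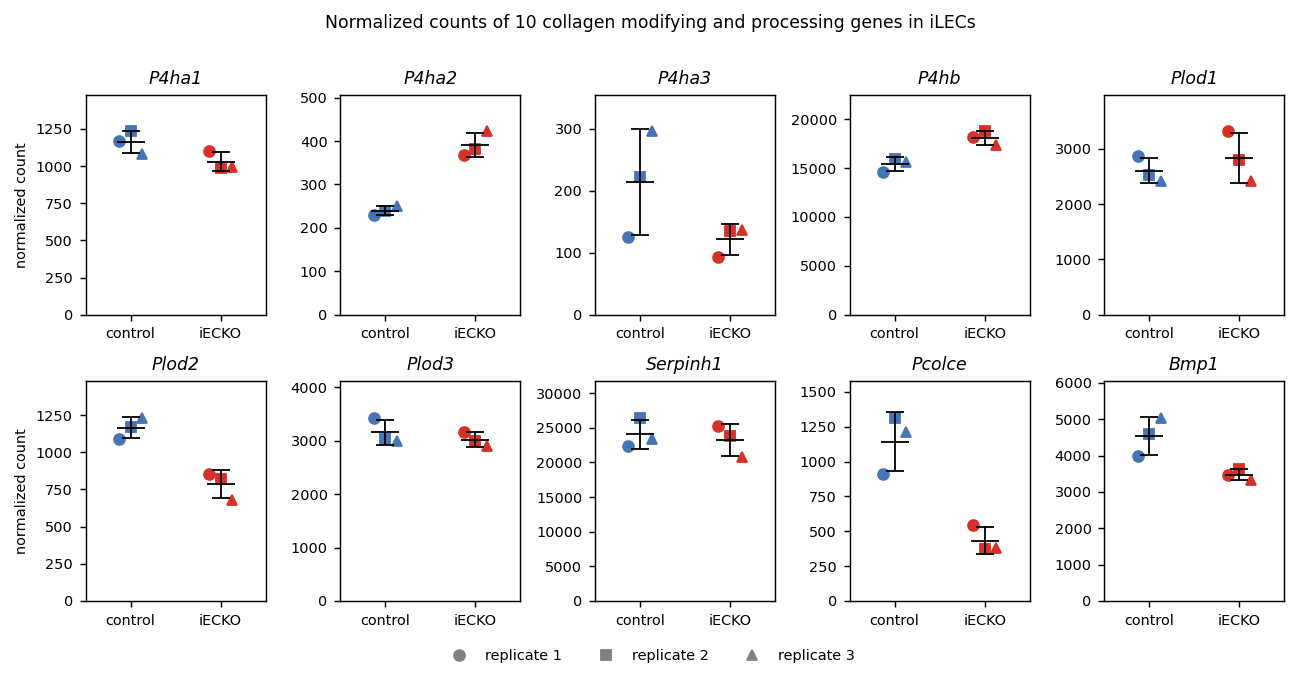
Normalized counts (y axis, from 0) of the 10 genes in control and *Atp6ap2*iECKO iLECs (x axis). Symbols are the 3 libraries of each genotype and bars are the mean ± SD. *P4ha2* lies above the controls in every *Atp6ap2*iECKO library and *Plod2* and *Pcolce* lie below them, while *Serpinh1*, *Plod1* and *Plod3* overlap.

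The 10 genes differed widely in abundance. Levels are compared per length here, as the normalized count per kb of annotated exon. *Serpinh1* stood highest, at 9855 ± 866 (SD, n = 3) per kb in controls, followed by *P4hb* at 5378 ± 250 (SD, n = 3). The next genes in order were *Plod3* (699 per kb), *Bmp1* (512) and *Plod1* (384). *Pcolce* (299) and *P4ha1* (282) could not be ranked, since their control libraries overlapped. *Plod2* (216) came below them, and *P4ha3* (68.4) and *P4ha2* (38.4) were lowest and also overlapped. With the longest transcript in place of all annotated exons, *Plod2* and *P4ha1* overlapped in the controls (318 and 287 per kb), as did *Plod3* and *Bmp1* (962.5 and 846), while *Pcolce* (444) lay above *P4ha1* in every control. In *Atp6ap2*iECKO iLECs *Bmp1* and *Plod1* overlapped, at 391 and 419 per kb. *Pcolce* was at 113 per kb there, below *P4ha1* in every library and overlapping *Plod2* at 146. *P4ha2* was then above *P4ha3* (62.6 and 38.7 per kb), and those libraries did not overlap. For scale, the type IV collagen chain *Col4a1* was at 21427 per kb in controls and the fibrillar chain *Col3a1* at 2370.

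**Figure D2:**
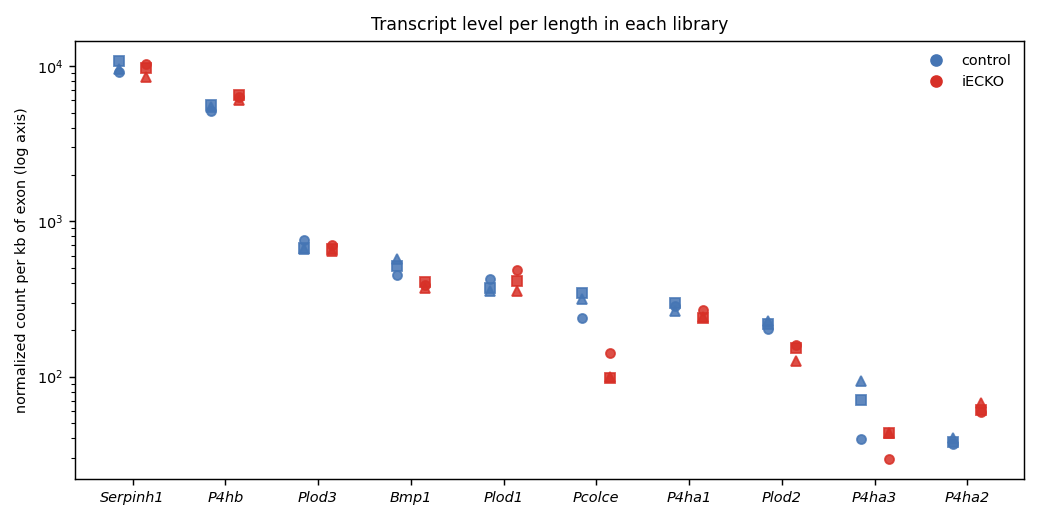
Normalized count per kb of annotated exon (y axis, log scale) of each of the 10 genes (x axis, ordered by the control mean) in each library. Blue symbols are control and red symbols *Atp6ap2*iECKO libraries, with circles, squares and triangles for replicates 1, 2 and 3. *Serpinh1* and *P4hb* exceed the other genes in every library, and *P4ha2* and *P4ha3* are lowest.

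Upstream sequences are shown for *P4ha2* and *Pcolce*, which moved in opposite directions, and for *Serpinh1*, the most abundant of the genes. Of the 10 genes, 8 were matched to a promoter in the RefSeq annotation of GRCm38.p6 (all but *Plod2* and *Bmp1*). Each sequence below is the 250 bases before the annotated start, written 5′ to 3′ on the strand of the gene. The RefSeq starts of *P4ha2* and *Pcolce* lie inside the spans that GENCODE gives these genes. The windows are *P4ha2* (chr11:54100674-54100923, plus strand), *Pcolce* (chr5:137611405-137611654, minus strand) and *Serpinh1* (chr7:99353240-99353489, minus strand). Capitals mark matches on either strand to ACGTG, a form of the core of the hypoxia response element, and to GGGCGG, the GC box. The form GCGTG was not searched or marked, and its letters occur in the *P4ha2* and *Pcolce* windows.
P4ha2: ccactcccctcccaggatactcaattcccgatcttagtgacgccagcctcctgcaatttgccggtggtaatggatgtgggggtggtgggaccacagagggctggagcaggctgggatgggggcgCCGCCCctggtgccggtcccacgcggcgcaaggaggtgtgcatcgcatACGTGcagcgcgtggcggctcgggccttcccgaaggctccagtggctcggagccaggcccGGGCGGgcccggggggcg
Pcolce: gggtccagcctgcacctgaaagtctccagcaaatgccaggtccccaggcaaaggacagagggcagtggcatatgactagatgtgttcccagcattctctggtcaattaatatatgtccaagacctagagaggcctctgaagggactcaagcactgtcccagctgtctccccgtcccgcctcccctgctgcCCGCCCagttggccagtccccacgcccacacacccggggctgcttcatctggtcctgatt
Serpinh1: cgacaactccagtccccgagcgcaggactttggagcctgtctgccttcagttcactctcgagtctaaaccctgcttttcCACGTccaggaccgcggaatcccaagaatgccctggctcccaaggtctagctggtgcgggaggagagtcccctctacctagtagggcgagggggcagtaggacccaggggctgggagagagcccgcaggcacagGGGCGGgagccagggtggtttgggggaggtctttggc
The ACGTG core occurred once in *P4ha2* and once in *Serpinh1*, and it is present in 16.6% of the 32817 promoter windows of this length. It also occurred in *P4ha1*, *P4hb* and *Plod3*, and not in the windows of *Pcolce*, *P4ha3* and *Plod1*. GC boxes numbered 2 in *P4ha2*, 1 in *Pcolce* and 1 in *Serpinh1* (32.7% of all windows hold at least 1). The TATA box TATAAA (12.4% of windows), the CCAAT box (33.8%) and the heat shock element pair GAANNTTC (6.7%) were also searched and had no match in these 3 windows. A match describes letters and not a bound site.

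Of the 4 prolyl 4-hydroxylase subunits, 1 rose and 3 did not pass the test, beside 3.28% of all genes called higher. *P4ha2* encodes an alternative catalytic subunit of the enzyme. Its normalized counts were 230.02, 238 and 251 in controls and 368, 381 and 422 in *Atp6ap2*iECKO libraries. Every *Atp6ap2*iECKO library was above every control library, and the controls lay close together. The means were 239.7 ± 10.4 (SD, n = 3) and 390.6 ± 28.0 (SD, n = 3), and the log2 fold change was 0.70 ± 0.13 (SE), with an adjusted *P* of 0.0215 in limma. *P4ha1*, the main catalytic subunit in most cells, had 1170.1, 1232 and 1081 in controls and 1103, 988 and 994 in *Atp6ap2*iECKO libraries. The genotypes of *P4ha1* overlapped through replicate 1 of *Atp6ap2*iECKO mice, and its log2 fold change was -0.17 (95% confidence interval -0.39 to 0.04, adjusted *P* = 0.311). *P4ha3*, the remaining catalytic subunit, had 125, 222 and 296 in controls and 92.7, 135 and 137 in *Atp6ap2*iECKO libraries. Its controls spread widely, control replicate 1 fell among the *Atp6ap2*iECKO libraries, and the log2 fold change of -0.75 had an interval from -1.51 to 0.01 (adjusted *P* = 0.213). It moved to -0.48 without control 3 and to -1.09 without control 1 (adjusted *P* = 0.0531).

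*P4hb*, the beta subunit, is also protein disulfide isomerase, a folding enzyme for many secreted proteins. It had normalized counts of 14589, 15970 and 15599 in controls and 18199, 18751 and 17318 in *Atp6ap2*iECKO libraries. The genotypes did not overlap, but the log2 fold change of 0.23 (standard error 0.09) did not pass the test over all genes (adjusted *P* = 0.141, unadjusted *P* = 0.0251). Among the 3 catalytic subunits, *P4ha2* held 10.2%, 9.35% and 10.1% of the summed count per kb in controls and 16.5%, 17.8% and 19.2% in *Atp6ap2*iECKO libraries. That share was higher in all 3 *Atp6ap2*iECKO libraries, by 7.93 percentage points (two-sided exact permutation *P* = 0.1, which is the smallest value possible with 3 samples a group). With the longest transcript as the length, the difference was 12.2 points. *P4ha1* held the largest share in every library, 72.7 ± 6.33% in control and 71.1 ± 3.55% in knockout libraries (± SD, n = 3 each). The log2 ratio of *P4hb* to the summed catalytic subunits was 3.79 ± 0.03 in control and 4.17 ± 0.08 in knockout libraries (± SD, n = 3 each, two-sided exact permutation *P* = 0.1). The call of *P4ha2* was lost without control replicate 3 (adjusted *P* = 0.0583), without *Atp6ap2*iECKO replicate 2 (0.0830) or 3 (0.103), while its log2 fold change stayed between 0.64 and 0.74 with each library left out.

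**Figure D3:**
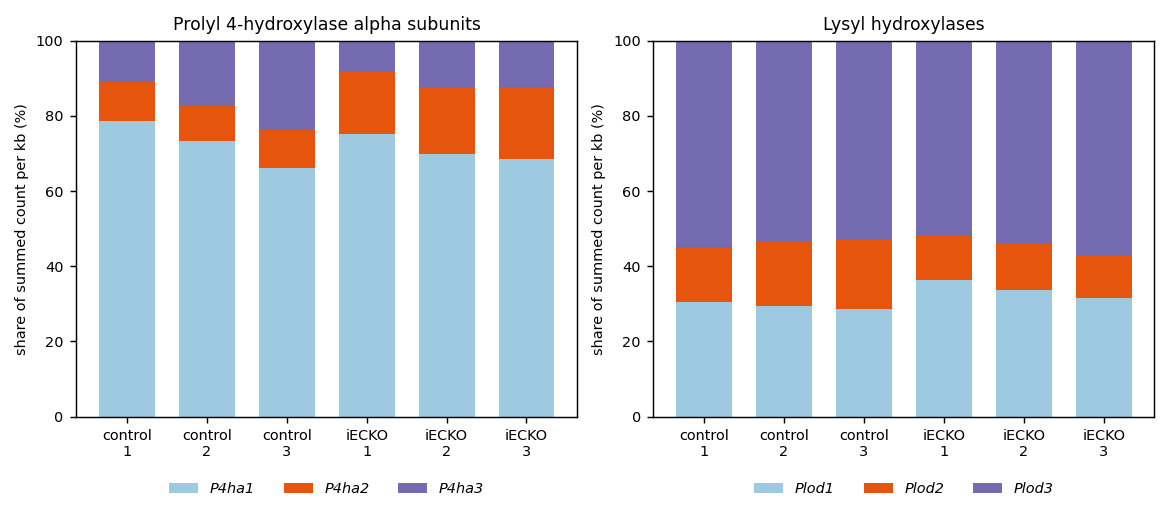
Shares (y axis, percent) of the summed normalized count per kb in each library (x axis), for the 3 catalytic prolyl 4-hydroxylase subunits (left) and the 3 lysyl hydroxylases (right). The orange segment of *P4ha2* is larger in each *Atp6ap2*iECKO library (16.5% to 19.2%) than in each control (9.35% to 10.2%), and that of *Plod2* is smaller.

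Among lysyl hydroxylases only *Plod2* passed the test, beside 4.97% of all genes called lower. *Plod2* encodes the lysyl hydroxylase that acts on collagen telopeptides, the ends through which fibrils are cross-linked. Its normalized counts were 1090 in control replicate 1, 1172 in replicate 2 and 1232 in replicate 3, and 857, 821 and 680.03 in the *Atp6ap2*iECKO libraries. Every *Atp6ap2*iECKO library was below every control. The log2 fold change was -0.57 ± 0.11 (SE), with an adjusted *P* of 0.0260 in limma. *Plod1*, which hydroxylates lysines of the helix, had 2859, 2520.4 and 2423 in controls and 3311, 2788 and 2408 in *Atp6ap2*iECKO libraries, with a log2 fold change of 0.12 (95% confidence interval -0.18 to 0.41, adjusted *P* = 0.635). *Plod3*, which can also attach sugars to hydroxylysine, had 3431, 3037 and 3003 against 3169, 2988 and 2908, with a log2 fold change of -0.06 (interval -0.25 to 0.13, adjusted *P* = 0.713). For both genes the genotypes overlapped. *Plod3* lies on chromosome 5 from 136987019 to 136996648 and overlaps *Znhit1* on the other strand, whose reads in the shared stretch cannot be told apart without strand information. *Znhit1* had normalized counts of 335 ± 35.4 in control and 367.6 ± 19.6 in knockout libraries (± SD, n = 3 each). *Plod2* made up 16.7 ± 1.89% of the summed lysyl hydroxylase count per kb in control and 11.8 ± 0.610% in knockout libraries (± SD, n = 3 each), lower in all 3 libraries (two-sided exact permutation *P* = 0.1). The share of *Plod1* was higher in all 3 knockout libraries, at 33.8 ± 2.33% against 29.6 ± 0.955% in control (± SD, n = 3 each, two-sided exact permutation *P* = 0.1). The call of *Plod2* was lost without control replicate 2 (adjusted *P* = 0.0615) or 3 (0.0906), and without *Atp6ap2*iECKO replicate 2 (0.0770) or 3 (0.0873), as well as without the mean-variance trend (0.0722), with log2 fold changes between -0.64 and -0.47 over the 6 fits that left out a library.

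*Serpinh1*, on chromosome 7 from 99345376 to 99353239, encodes a chaperone with collagen as its main client. It had normalized counts of 22391, 26448 and 23385 in controls and 25193, 23779 and 20709 in *Atp6ap2*iECKO libraries. The genotypes overlapped, and the means were 24075 ± 2115 and 23227 ± 2292 (SD, n = 3 each). The log2 fold change was -0.05 ± 0.11 (SE), with an adjusted *P* of 0.824 in limma. Its 95% confidence interval ran from -0.32 to 0.21, which overlaps that of *Plod2* (-0.84 to -0.31). The difference between these genes was not tested. The sign of the *Serpinh1* value depended on the library left out, being 0.02 without control replicate 2 and 0.03 without *Atp6ap2*iECKO replicate 3.

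The 2 genes of C-propeptide removal had lower values in every *Atp6ap2*iECKO library, and 1 of them passed the test. Over all genes 4.97% were called lower, and the genotypes did not overlap for 29.8%. *Pcolce* lies on chromosome 5 from 137605103 to 137613784. Its normalized counts were 907, 1315 and 1209 in controls and 543, 376 and 381 in *Atp6ap2*iECKO libraries. The highest *Atp6ap2*iECKO library, replicate 1, was well below the lowest control, which was also replicate 1. The log2 fold change was -1.40 (SE 0.19, 95% confidence interval -1.84 to -0.97) with an adjusted *P* of 0.0103 in limma, the largest change of the 10 genes. It was called in all 6 fits that left out a library, with log2 fold changes from -1.58 to -1.29 and adjusted *P* values from 0.0067 to 0.0473. *Fbxo24*, which overlaps *Pcolce* on the same strand, stayed near the filter on low values, at 9.25 ± 4.15 in control and 9.62 ± 5.12 in knockout libraries (± SD, n = 3 each). *Bmp1*, the C-proteinase itself, had 3986, 4594 and 5041 in controls and 3468, 3622 and 3324 in *Atp6ap2*iECKO libraries. These did not overlap either, but the log2 fold change of -0.38 (standard error 0.10) had an adjusted *P* value of 0.0559. Only without control replicate 1, the lowest control, was *Bmp1* called (log2 fold change -0.47, adjusted *P* = 0.0250).

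Other genes of collagen biosynthesis were taken from lists of 29 genes for prolyl 3-hydroxylation, isomerisation, galactosylation, propeptide removal, lysyl oxidation and export, of which 26 were tested. In *Atp6ap2*iECKO iLECs 6 of these fell, 1 rose and 19 did not pass, beside 4.97% lower and 3.28% higher over all genes. The 6 that fell were 4 of the 5 lysyl oxidases, which form cross-links outside the cell, and 2 of the 5 tested proteinases and enhancers of propeptide removal. *Loxl1*, the oxidase tied to elastic fibres, had normalized counts of 1375, 2199 and 2118 in controls and 682, 599 and 433 in *Atp6ap2*iECKO libraries. Its log2 fold change was -1.72 ± 0.22 (SE, adjusted *P* = 0.0092). *Adamts2*, the proteinase that removes the N-propeptide of fibrillar procollagen, had 1381, 2015 and 1823 in controls and 860.3, 681 and 580 in *Atp6ap2*iECKO libraries. *Pcolce2*, a second C-proteinase enhancer, had 812, 874 and 909 against 437, 269.5 and 252. In none of these 3 genes did the genotypes overlap, and the log2 fold changes of *Adamts2* and *Pcolce2* were -1.30 and -1.48 (adjusted *P* = 0.0104 for both). All 3 were called in each of the 6 fits that left out a library.

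*Loxl2*, the most abundant of the lysyl oxidases by normalized count, fell from 5671 ± 606 to 3368 ± 484 (SD, n = 3 each), a log2 fold change of -0.76 (adjusted *P* = 0.0151). *Loxl3* and *Lox* had log2 fold changes of -0.74 (adjusted *P* = 0.0258) and -0.48 (0.0463). *Loxl4* was low, with means of 33.0 in control and 37.4 in knockout libraries. The only gene that rose was *Sec24d*, which encodes a cargo adaptor of the vesicle coat that exports procollagen from the endoplasmic reticulum. It had 1007, 1319 and 1189 in controls and 1569, 1879 and 1840 in *Atp6ap2*iECKO libraries, without overlap, and a log2 fold change of 0.59 ± 0.12 (SE, adjusted *P* = 0.0289). These 4 calls, of *Loxl2*, *Loxl3*, *Lox* and *Sec24d*, depended on single libraries and on the variance model. Without the mean-variance trend all 4 were lost (adjusted *P* = 0.0619, 0.0569, 0.117 and 0.0827), and *Lox* was also lost with no filter (0.0526). Each of the 4 was lost when any of 3 libraries was left out (control 3, knockout 2 and knockout 3), at adjusted *P* values up to 0.0612 (*Loxl2*), 0.0977 (*Loxl3*), 0.145 (*Lox*) and 0.110 (*Sec24d*). Beyond these libraries, *Lox* was also lost without control replicate 1 (0.0735) or 2 (0.119), *Loxl3* without control replicate 2 (0.0683) or *Atp6ap2*iECKO replicate 1 (0.0520), and *Sec24d* without control replicate 1 (0.0510). With *Xist* as a covariate 6 of the 7 were called, and *Lox* was not (0.0736). In the 4 libraries with *Xist*, 0 of the 26 genes were called by limma and 9 had an unadjusted *P* value below 0.05.

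The 6 genes of prolyl 3-hydroxylation, the 2 isomerases and the 2 galactosyltransferases held no call, beside 8.25% of all genes called. The genotypes did not overlap for 4 of the 6 prolyl 3-hydroxylation genes (3 lower, 1 higher). Nor did they for 1 of the 2 isomerases and 1 of the 2 galactosyltransferases (both higher), against 29.8% of all genes. *P3h3*, a prolyl 3-hydroxylase, did not overlap between genotypes, with a log2 fold change of -0.56 ± 0.16 (SE, adjusted *P* = 0.0685), and was called without control 1. *Ppib*, the cyclophilin of the prolyl 3-hydroxylase complex and the most abundant of them, had a log2 fold change of -0.12 (adjusted *P* = 0.419). *Fkbp10*, a collagen isomerase, had one of 0.11 (0.409), and *Colgalt1*, which attaches galactose to hydroxylysine, one of 0.26 (0.0969) and was called with library total scaling. *Sec23a*, the most abundant export gene, had a log2 fold change of 0.30 (adjusted *P* = 0.0663) and was called with library total or upper quartile scaling. *Mep1b* was listed at 0 in all 6 libraries, and *Tll2* and *Mep1a* were below the filter.

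**Figure D4:**
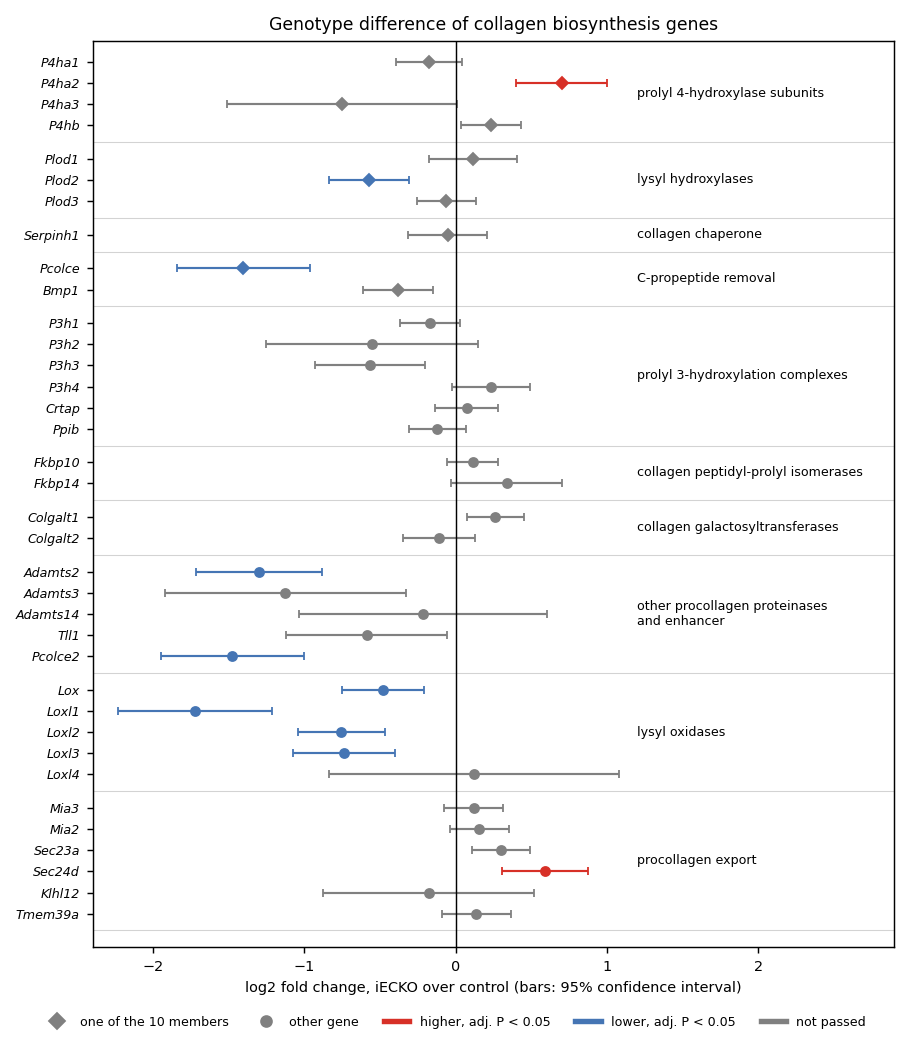
log2 fold change of *Atp6ap2*iECKO over control (x axis) with its 95% confidence interval from limma, for the 10 genes (diamonds) and the 26 other tested genes of collagen biosynthesis (circles), grouped by step. Red marks genes called higher, blue genes called lower and gray genes that did not pass. The calls among proteinases, enhancers and lysyl oxidases are all to the left of 0, and *P4ha2* and *Sec24d* are the only calls to the right.

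The collagen chains on which these enzymes act were counted by class, beside 4.97% of all genes called lower and 3.28% higher, and the difference between classes was not tested. Of 11 fibrillar chains tested, 5 fell (*Col1a1*, *Col1a2*, *Col3a1*, *Col5a1* and *Col27a1*) and 6 did not pass, with a median log2 fold change of -0.93. *Col3a1*, the chain of type III collagen, had normalized counts of 17251, 26691 and 25859 in controls and 8931, 7369 and 6987 in *Atp6ap2*iECKO libraries. Its log2 fold change was -1.56 ± 0.18 (SE, adjusted *P* = 0.0083), and those of *Col1a1* and *Col1a2*, the chains of type I collagen, were -1.62 and -1.60. None of the 6 type IV chains was called by limma and 0 had an unadjusted *P* value below 0.05. The most abundant of these, *Col4a1* and *Col4a2*, had log2 fold changes of 0.13 (95% confidence interval -0.22 to 0.48) and 0.09 (interval -0.21 to 0.39). Summed over each class, fibrillar chains were at 0.398 of the control mean and type IV chains at 1.08. The call of *Col27a1* was lost without control 3, knockout 2 or knockout 3 and without the mean-variance trend, each leaving 3 chains called. *Col5a1* was called in 1 of 6 fits that left out a library, the fit without control 1, and was also lost with library total scaling, no filter, robust variances, no trend or *Xist* as a covariate. Beside these chains stand the log2 fold changes of *Pcolce* (-1.40), *Bmp1* (-0.38) and *Serpinh1* (-0.05), which were not tested against them.

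Markers of other lung cell types were measured in the same libraries. In bulk RNA, fewer cells of a type cannot be told apart from less RNA per cell. Endothelial markers were all expressed, with *Cdh5* the most abundant (control mean 92569, knockout mean 96010.0). Over all genes 4.97% were called lower and 3.28% higher. Of the 20 endothelial markers 1 fell (*Tek*) and 19 did not pass, with a median log2 fold change of 0.00, and their summed normalized count was 0.965 of the control mean. Of 17 fibroblast markers 15 were tested, 11 fell and 0 rose, with a median of -1.50. The largest falls among those that passed were those of *Twist2* (-2.41), *Mfap4* (-1.84) and *Dpt* (-1.78). *Twist2* was low, with means of 37.6 in control and 6.33 in knockout libraries. It passed the filter on low values through the controls alone, so its fall rests on few reads. *Mfap4*, a microfibril protein and the most abundant of them, fell from 39913 ± 6508 to 11356 ± 3560 (SD, n = 3 each). *Pi16* went the other way, with means of 64.3 in control and 140 in knockout libraries, which did not overlap, and a log2 fold change of 1.12 (adjusted *P* = 0.0902). *Mfap5* had a log2 fold change of 0.55 (adjusted *P* = 0.313). *Pdgfra* and *Tcf21*, which define lung fibroblasts, were at 1740 and 1352 in controls, while *Dcn* was at 17.7 and *Lum* was below the filter. Of 18 mural and smooth muscle markers 11 fell and 0 rose, with a median of -1.52 and, among those that passed, the largest falls in *Rgs5* (-1.94), *Cox4i2* (-1.81) and *Des* (-1.69). *Pdgfrb*, a pericyte receptor and the most abundant, fell from 6642 ± 1241 to 2292 ± 514 (SD, n = 3 each). *Acta2* and *Des*, which define smooth muscle and other mural cells, had control means of 1205 and 879. No marker on either of these lists was at 0 in all libraries.

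The summed fibroblast markers were 0.818, 1.15 and 1.03 times the control mean in the controls and 0.406, 0.269 and 0.233 in *Atp6ap2*iECKO libraries, and the mural markers 0.757, 1.10 and 1.14 against 0.396, 0.327 and 0.312. *Pcolce* was lowest among controls and highest among *Atp6ap2*iECKO libraries in replicate 1 of each genotype, as both marker sums were. *Plod2*, *Adamts2*, *Pcolce2*, *Loxl1* and *Loxl2* had the same pattern. *Bmp1* and *Loxl3* were highest among knockout libraries in replicates 2 and 3, and *Lox* was lowest among controls in replicate 3. How many of all genes had this pattern was not counted. Replicate 1 also kept the most *Atp6ap2* of the knockout libraries (4220, against 2336 and 1982). *Plod2* and the 4 lysyl oxidases, which are named because they were called lower, were lower in all 3 knockout libraries than in all 3 controls. Over all genes the genotypes did not overlap for 29.8%. *P4ha2* was higher in all 3, and the summed endothelial markers overlapped between genotypes. The part of fibroblast and mural RNA in the lower values of *Pcolce*, *Plod2*, *Bmp1*, the proteinases and the lysyl oxidases was not tested. Markers of epithelium (1 of 16 rose, *Scgb1a1*), leukocytes (0 of 15), mesothelium (0 of 1), cartilage (0 of 2) and erythroid cells (0 of 4) held no fall at the threshold, and epithelial markers were highest in control replicate 3, at 1.65 times the control mean. The call of *Scgb1a1* was lost without the mean-variance trend and without knockout 3, and other fits are given with *Pgk1* below. The most abundant genes of these lists were *Sftpc*, *Lyz2*, *Msln*, *Sox9* and *Hba-a1*, and the hemoglobin gene *Hbb-bs* was listed at 0 in all libraries.

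**Figure D5:**
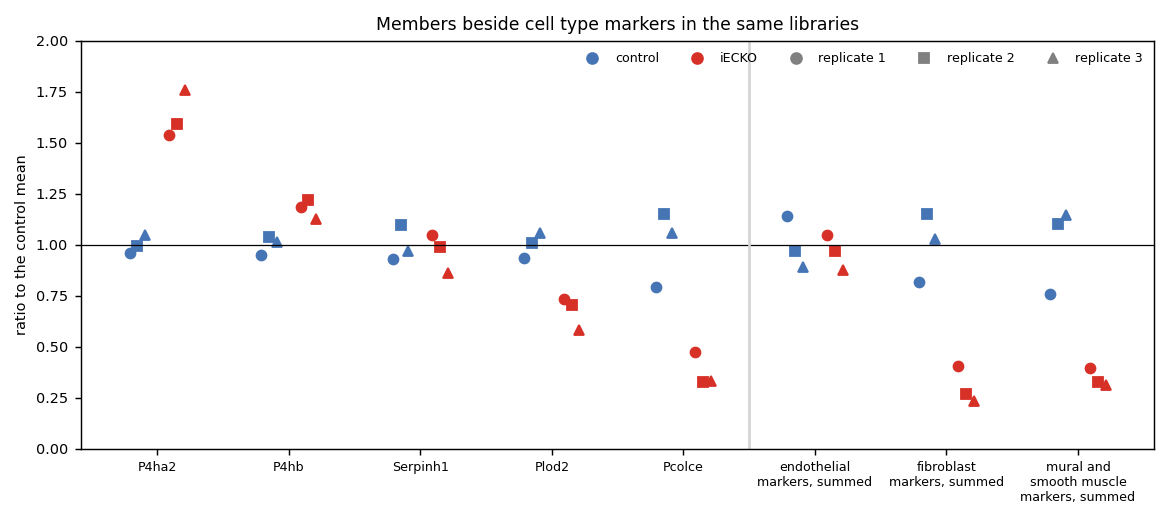
Ratio of each library to the control mean (y axis, from 0) for 5 of the genes and for the summed endothelial, fibroblast, and mural and smooth muscle markers (x axis). Blue is control, red *Atp6ap2*iECKO, and symbols give the replicate. *Pcolce* lies at 0.329 to 0.474 in *Atp6ap2*iECKO libraries, near the fibroblast (0.233 to 0.406) and mural (0.312 to 0.396) sums, while *P4ha2* is at 1.54 or higher in all 3.

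General folding factors and hypoxia genes were compared because *P4hb* works in general folding and because *P4ha1*, *P4ha2*, *Plod1* and *Plod2* are known targets of the hypoxia-inducible factors. Of 20 folding factors of the endoplasmic reticulum, 0 were called by limma, beside 8.25% of all genes. Their median log2 fold change was 0.16, and 8 had an unadjusted *P* value below 0.05, which 23.9% of all genes tested had. Of these 8, 7 had higher values and *Pdia5* lower values in knockout libraries. The genotypes did not overlap for 10 of the 20 (9 higher, 1 lower), against 29.8% of all genes. *Hspa5*, the main chaperone there, had a log2 fold change of -0.01 (adjusted *P* = 0.959), and *Canx*, the lectin chaperone calnexin, 0.32 (0.0991). Beside 3.28% of all genes called higher and 4.97% lower, of 18 hypoxia genes 1 rose (*Pgk1*, a glycolytic enzyme, 0.46, adjusted *P* = 0.0141), 1 fell (*Adm*, the vasodilator peptide adrenomedullin, -1.08, 0.0396) and 16 did not pass, with a median of -0.14. The call of *Pgk1* was lost without the mean-variance trend and without knockout 3, among other fits. In the main fit 2 genes of the marker and comparison lists were called higher, *Pgk1* and *Scgb1a1*. Only 1 gene of these lists was called higher with *Xist* as a covariate, or without control 2, knockout 1 or knockout 2. At least 1 of the 2 calls was thus lost in each of these fits. *Vegfa*, the most abundant of the hypoxia list, had a log2 fold change of -0.36 (adjusted *P* = 0.184). None of the 5 related hydroxylases that act on the hypoxia-inducible factors or in the membrane (*Egln1*, *Egln2*, *Egln3*, *Hif1an* and *P4htm*) was called, and at an unadjusted 0.05 the count was also 0.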

How the data were processed

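The 6 iLEC libraries, 3 per genotype, were used. The authors ran alignment and differential expression tools of BaseSpace, and the labels name the build mm10. They deposited a table of normalized signal, named normalized counts here. The labels call the values raw, but the median ratio to the geometric mean was 1.0036 in every library and 1.77% to 2.46% were whole within 0.01. Of values under 300, 19.04% to 32.1% were multiples (within 0.02 steps) of the most frequent value of their library, so whole reads could not be recovered for most genes and no count model was run. The filter (10 or more in 3 or more libraries) left 14456 genes. Their log2 values, with a pseudocount of 1, were fitted by limma 3.58.1 (R 4.3.3) with variances that follow the mean, and Benjamini-Hochberg adjustment was applied. The test was run first on simulated data. Single values were compared by exact permutation. Lengths and positions came from GENCODE vM21 (GRCm38, the build mm10 names), and lengths were the union of exons. Of the symbols, 24490 matched. The kit does not mark strand. The members and lists were chosen with earlier results of these data known. Genes named were the 10 members, *Atp6ap2*, listed genes past the threshold (up to 3 in comparison and marker lists), the most abundant gene of each list, the main collagen chains and the 5 genes most like the members. *Pdgfra*, *Tcf21*, *Dcn*, *Lum*, *Pi16*, *Mfap5*, *Acta2*, *Pdia5*, *Fbxo24*, *Znhit1* and others outside this rule were named after their values were seen. Alternatives were other scalings, filters, pseudocounts and variance models, a replicate block, an *Xist* covariate, each library left out, and, chosen after seeing the data, the 4 libraries with *Xist*. Figures were drawn with matplotlib 3.10.9.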

Additional observations from a re-analysis of the deposited data

How the results depend on the processing

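The count of 3 genes called stayed at 3 under 9 of 10 alternatives to scaling, filter, pseudocount, variance model and covariates, and was 2 without the mean-variance trend, where *Plod2* was lost. With a library left out it ranged from 1 to 4, with only *Pcolce* called without control replicate 3 or *Atp6ap2*iECKO replicate 2 or 3. Calls over all genes fell there too, from 474 higher and 719 lower with all libraries. They were 65 higher and 205 lower without control 3, 32 and 218 without knockout 2, and 28 and 178 without knockout 3. The other collagen biosynthesis genes called numbered 3 to 6 with a library left out, the collagen chains 3 to 6, and the marker and comparison genes 9 to 27 (7, 5 and 26 with all libraries). Biosynthesis genes and chains fell to 3 each without control 3, knockout 2 or knockout 3, and the marker and comparison genes to 15 without control 2, 11 without control 3, 11 without knockout 2 and 9 without knockout 3. Beyond the fits given above, calls over all genes were 274 higher and 658 lower without control 1. They were 460 and 365 without control 2, and 363 and 620 without knockout 1. Without the trend the list counts were 3, 3 and 12, beside 69 higher and 235 lower over all genes. In the 4 libraries with *Xist* the list counts were 0, 0 and 0, as was that of the 10 genes. *Atp6ap2* kept its direction in all 17 alternatives. Its log2 fold change was -1.22 without the trend (adjusted *P* = 0.0917), -1.19 in the libraries with *Xist* (0.217), and between -1.54 and -0.999 with a library left out, where 1 of 6 fits called it. *Plod1* ranged from -0.0020 (reversed, without knockout 1) to 0.23, and *Serpinh1* from -0.11 to 0.0274 (reversed, without knockout 3, and 0.0167 without control 2). The cause was not tested. The genotypes share replicate numbers. Deviations of same-numbered libraries correlated with r = 0.25, 0.11 and 0.08, and those of different-numbered libraries with r from -0.21 to 0.10. A pairing by number was not assumed in the main fit. With the replicate number as a block, 3 of the 10 genes and 9 of the other biosynthesis genes were called, which adds *P3h3* and *Sec23a* to the 7. Calls over all genes rose as well with the block, to 670 higher and 838 lower from 474 and 719 in the main fit. No count model was run, since the values are not counts. The 3 shares and ratios kept their direction with the longest transcript or no length and with each library left out, while the block, which cannot change these differences, gave *P* = 0.25 by exact sign flips, the smallest that 3 pairs allow. Depth is known only through the most frequent low value of each library, at which 1 estimated read is worth 1.51 to 2.34, so genes near the filter of 10, such as *Fbxo24*, rest on few reads.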

Other observations

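Beside 4.97% of all genes called lower and 3.28% higher, the genes were counted by where their products work. Of the 12 tested genes whose products work outside the cell (*Pcolce*, *Bmp1*, the other proteinases and enhancer, and the lysyl oxidases), 7 fell and 0 rose, with a median log2 fold change of -0.75 and a range from -1.72 to 0.12. Of the 18 genes whose products work in the endoplasmic reticulum (the other 8 members and the prolyl 3-hydroxylation, isomerase and galactosyltransferase genes), 1 fell and 1 rose, with a median of -0.06 and a range from -0.75 to 0.70. The 6 export genes, of which *Sec24d* rose, were in neither group. This grouping was made after the values were seen, and the difference between the groups was not tested. Among genes outside all lists with a mean of at least 100, the 5 whose values most resembled the mean standardised level of the 10 genes over the 6 libraries were *Adi1*, *Ptgr1*, *Tmem88*, *Fkbp9* and *Wipi1*. Their likeness, the correlation over the 6 libraries, was 0.996, 0.995, 0.994, 0.989 and 0.987. High values follow in part from the choice of the top 5 genes over only 6 libraries. The libraries share their genotype grouping and scaling, and the mean mixes genes that rose with genes that fell.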
